A study of Mus musculus with 10 samples.

Results

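Natural killer (NK) cells are lymphocytes that kill infected or transformed cells and secrete IFN-γ, and LPS-exposed accessory cells are known to activate them. They carry ready-made granules, from which perforin opens the target cell and granzymes enter it to start cell death. The decision to release them is set by activating receptors such as NKp46 and NKG2D and by inhibitory receptors such as the CD94/NKG2A pair, and the program as a whole depends on the related T-box transcription factors T-bet and Eomes. The transcripts of 10 genes of this program were followed in CD117+ splenocytes of mice with and without the signaling protein RasGRP4, a guanine nucleotide exchange factor for Ras. They were Ifng (IFN-γ), the granule genes Gzma, Gzmb and Prf1, the receptor genes Ncr1 (NKp46), Klrb1c (NK1.1), Klrd1 (CD94) and Klrk1 (NKG2D), and the transcription factor genes Eomes and Tbx21 (T-bet). The list is one of names, and each gene was read from the brightest probe set that carries its symbol alone. These are 10 of 25664 genes with such a probe set, and 8 of the 10 were bright enough to be tested among 11185 genes; Klrb1c and Eomes were not.

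The arrays held total RNA of CD117+ splenocytes purified from 5 RasGRP4-null and 5 WT male mice aged 9 to 12 weeks, all on the C57BL/6 (B6) background. The RasGRP4-null line was made by homologous recombination. For each genotype there was 1 array of untreated cells (0 h) and 1 for each of 4 lengths of exposure to LPS at 1 µg/ml, namely 12, 24, 36 and 48 h. No condition was replicated, the arrays of a genotype may share 1 preparation of cells, and no array of cells cultured without LPS was analysed here, so that LPS and time in culture cannot be told apart. The times follow the array titles, although the text on the design lists 6 h where the titles have 36 h, and for 3 of the RasGRP4-null arrays the source name states a shorter exposure. Values are PLIER intensities (an arbitrary linear brightness scale), and a value is called above background when it exceeds 95 percent of the 1089 values of olfactory receptor genes, which these cells should not use, on the same array. Levels of different genes cannot be set against each other on this scale.

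Several facts of the whole data set bear on these genes. Rasgrp4 was above background on the untreated WT array alone (16.7 in RasGRP4-null and 86.4 in WT cells at 0 h), so that after LPS its level did not check the labels. Kit, which encodes CD117, was above background on all 10 arrays, between 183 and 334 in RasGRP4-null cells and between 133 and 292 in WT cells. The purified cells were a mixture, and a transcript that changes may reflect fewer cells of a type or less RNA per cell, which cannot be told apart. The 10 macrophage and monocyte markers summed to 600 to 1018 on the RasGRP4-null LPS arrays and 567 to 779 on the WT LPS arrays, against 18514 and 17287 at 0 h, and 10 of 10 fell in limma. The 10 B cell markers were above background on all arrays. They summed to 4247 to 8364 on the RasGRP4-null LPS arrays and 6436 to 9123 on the WT LPS arrays, against 7876 and 8611 at 0 h. In limma 3 of the 10 rose and 3 fell, among them Fcer2a (-4.31) and Cr2 (-2.39), where 48.2% of all tested genes rose and 21.5% fell. T cells share granzymes, perforin, Tbx21, Eomes and Klrk1 with NK cells. Of 17 T cell markers, 13 to 16 were above background on the RasGRP4-null LPS arrays and 11 to 15 on the WT LPS arrays, and 15 on each array of 0 h. Their summed values were 1115 to 1510 after LPS in RasGRP4-null cells and 918 to 1248 in WT cells, against 1898 and 1747 at 0 h, and 1 of 12 tested T cell markers rose and 8 fell (median -0.60). Cd3e was above background on all 10 arrays, and Themis on none. Of 10 innate lymphoid cell (ILC) markers 7 were tested, and 5 of these rose and 1 fell (median 1.07). They summed to 1045 to 1738 (RasGRP4-null) and 748 to 1192 (WT) after LPS, against 829 and 768 at 0 h. The part of T cells and of ILCs in the values below was not tested.

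The promoters of 5 of the genes are shown because the granule genes and Ncr1 share short letter runs that the transcription factors of this program are known to read, with Ifng, which holds neither run, beside them. The sequences are from RefSeq (GRCm38.p6), from 250 bases before to 50 bases after the annotated start, 5′ to 3′ on the strand of the gene. Capitals mark AGGTGT, the core of a T-box site, and TGTGGT, the core of a RUNX site, on either strand (ACACCT and ACCACA on the other strand).
Ifng (chr10:118440796-118441095, plus strand): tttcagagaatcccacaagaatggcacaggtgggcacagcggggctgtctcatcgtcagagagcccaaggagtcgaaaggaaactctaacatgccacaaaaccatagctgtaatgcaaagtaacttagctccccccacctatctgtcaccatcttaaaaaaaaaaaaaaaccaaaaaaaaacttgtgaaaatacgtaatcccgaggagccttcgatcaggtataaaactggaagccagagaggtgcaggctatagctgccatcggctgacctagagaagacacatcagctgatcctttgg
Gzma (chr13:113100932-113101231, minus strand): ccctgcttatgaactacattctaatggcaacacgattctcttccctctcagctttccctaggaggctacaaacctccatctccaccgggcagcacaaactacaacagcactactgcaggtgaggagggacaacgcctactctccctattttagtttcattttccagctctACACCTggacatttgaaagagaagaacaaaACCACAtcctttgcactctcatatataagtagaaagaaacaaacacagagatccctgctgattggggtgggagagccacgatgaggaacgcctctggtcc
Gzmb (chr14:56262285-56262584, minus strand): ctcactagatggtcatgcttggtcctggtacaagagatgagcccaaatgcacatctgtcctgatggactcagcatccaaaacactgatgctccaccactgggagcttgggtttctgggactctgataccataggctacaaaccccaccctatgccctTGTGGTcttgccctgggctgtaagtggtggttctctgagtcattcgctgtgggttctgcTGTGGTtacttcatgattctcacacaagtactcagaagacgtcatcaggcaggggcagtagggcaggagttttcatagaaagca
Prf1 (chr10:61297586-61297885, plus strand): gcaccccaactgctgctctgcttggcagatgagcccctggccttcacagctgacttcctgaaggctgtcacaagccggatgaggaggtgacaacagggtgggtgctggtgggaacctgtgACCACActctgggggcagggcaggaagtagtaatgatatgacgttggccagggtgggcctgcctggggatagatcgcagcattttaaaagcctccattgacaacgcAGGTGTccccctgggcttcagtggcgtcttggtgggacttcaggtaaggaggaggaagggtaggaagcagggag
Ncr1 (chr7:4337465-4337764, plus strand): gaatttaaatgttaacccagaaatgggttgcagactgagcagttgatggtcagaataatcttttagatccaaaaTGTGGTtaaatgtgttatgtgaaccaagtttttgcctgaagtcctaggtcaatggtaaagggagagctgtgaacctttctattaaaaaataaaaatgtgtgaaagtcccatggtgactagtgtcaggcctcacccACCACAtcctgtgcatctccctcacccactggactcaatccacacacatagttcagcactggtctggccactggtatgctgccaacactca
Of the 10 genes 9 had a promoter in the table; Klrd1 did not. The T-box letters occurred in 2 of the 9, Prf1 (24 bases before the start) and Gzma (80 bases before it), and in 15.7% of 27025 genes with a promoter in the table. The RUNX letters occurred in 6 of the 9, which were Gzma, Gzmb, Prf1, Ncr1, Klrb1c and Klrk1, and in 18.9% of genes. Gzmb and Ncr1 held 2 copies each. The AP-1 letters TGANTCA were found in Gzmb and Klrk1 and in 8.97% of genes. No match shared a base with another. A match is a run of letters and not a measured binding site.

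The LPS response was taken as the mean of 12 to 48 h minus 0 h over both genotypes. The secreted cytokine, both granzymes, perforin and T-bet rose, the lectin-like receptors Klrd1 and Klrk1 fell, and NKp46 did not pass the test. So 5 of the 8 tested genes rose and 2 fell (limma, adjusted p under 0.05), where 48.2% of all tested genes rose and 21.5% fell. The median of the 8 changes was 0.61 on the scale of log2(PLIER value + 16), and the median of all tested genes was 0.26. The authors also scaled each array to Gapdh, a glycolytic enzyme read from a probe set that lists 21 symbols. Its own PLIER value was 2815 to 3871 (RasGRP4-null) and 3332 to 3893 (WT) after LPS, against 1487 and 1633 at 0 h, and after this scaling the median of all tested genes was -0.70. The balance of calls then turned, with 8.54% of all tested genes higher and 69.2% lower, and of the 8 genes 3 were higher (Ifng, Gzmb and Tbx21) and 3 lower (Ncr1, Klrd1 and Klrk1). The counts of called genes are therefore no result about these 8 genes. Directions are given on the PLIER scale, and those of Gzma, Prf1 and Ncr1 turned on the other.

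**Figure D1:**
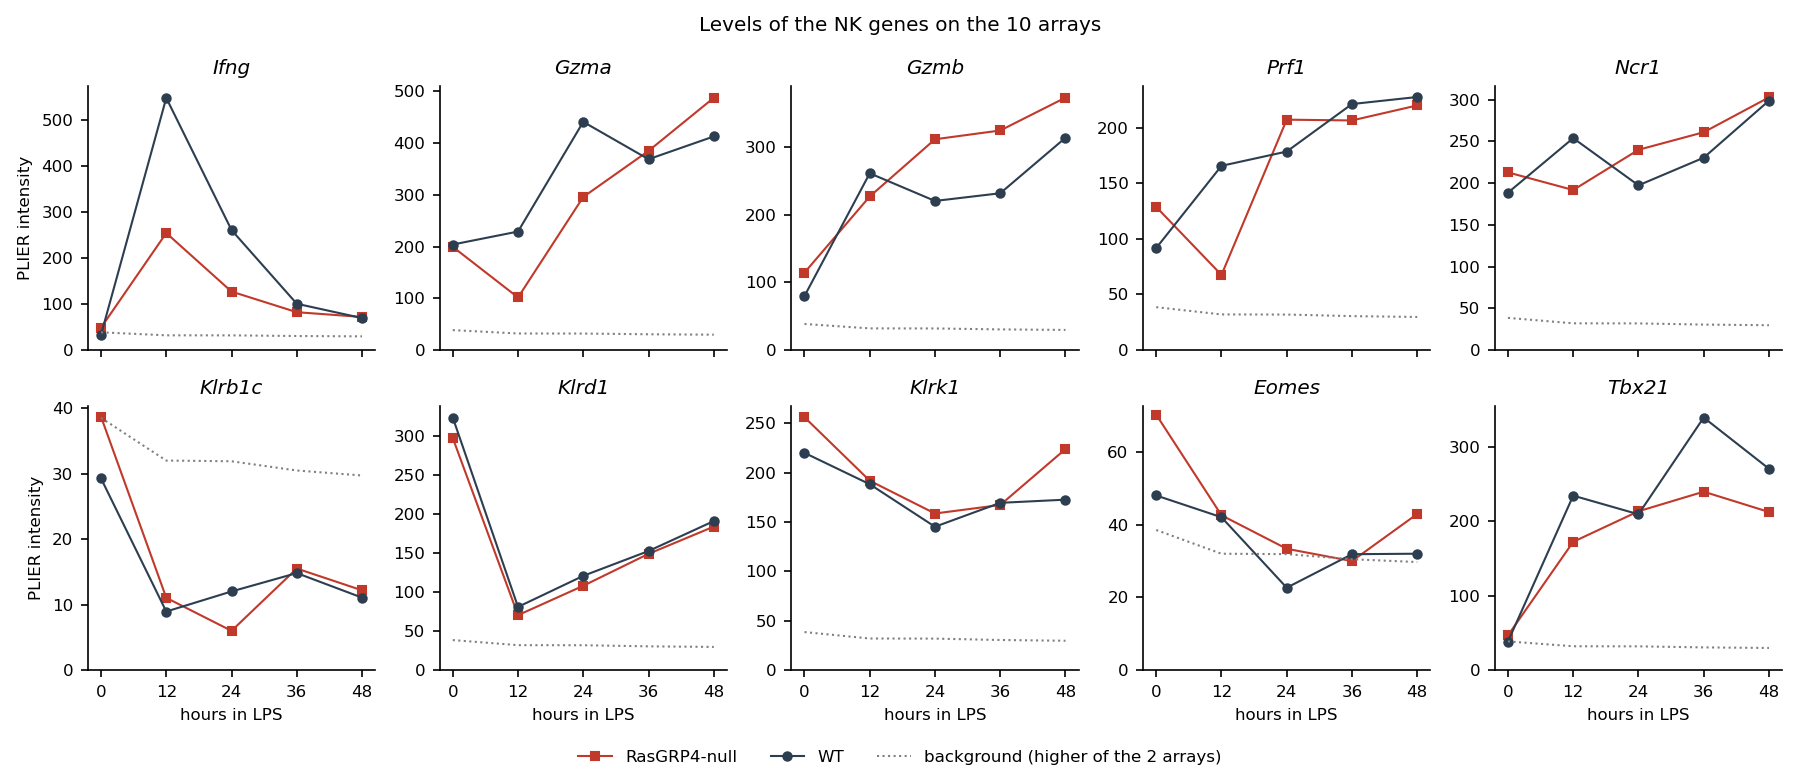
PLIER intensity (y axis, linear, from 0, a separate scale for each gene) against hours in LPS (x axis) for the 10 genes, 1 point per array, RasGRP4-null as red squares and WT as dark circles; the dotted line is the background level, the higher of the 2 arrays at each time. Ifng peaked at 12 h, Gzmb and Ncr1 were highest at 48 h in both genotypes, Klrd1 was lowest at 12 h, and Gzma and Prf1 were lowest on the RasGRP4-null 12 h array.

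Ifng encodes IFN-γ, the cytokine by which NK cells activate macrophages. Its values were 48.7, 254, 127, 82.3 and 72.0 at 0, 12, 24, 36 and 48 h in RasGRP4-null cells. In WT cells they were 33.3, 548, 261, 101 and 69.5 at the same times, the first of them below background. The highest value of each genotype was that of 12 h, and each later value was lower than the one before it. The 12 h value was 5.23 times that of 0 h in RasGRP4-null cells and at least 14.2-fold higher in WT cells, where the background level stands for the untreated value. Over both genotypes Ifng rose by 2.79 at 12 h (standard error 0.29, adjusted p = 1.33e-05 from limma) and then fell by 1.53 between the mean of 12 and 24 h and the mean of 36 and 48 h (standard error 0.21, adjusted p = 0.000523). The change over 12 to 48 h was 1.54 (standard error 0.23, adjusted p = 0.000135), and 0.71 after scaling to Gapdh (adjusted p = 0.0114).

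Gzmb encodes granzyme B, the protease that cleaves caspases in the target cell. Its values were 114, 227, 311, 324 and 373 over the 5 times in RasGRP4-null cells and 79.8, 261, 220.3, 232 and 314 in WT cells. All 4 LPS arrays of each genotype lay above both untreated arrays. Gzmb rose by 1.40 over 12 to 48 h (standard error 0.14, adjusted p = 4.59e-06) and by 1.22 at 12 h (standard error 0.17, adjusted p = 0.000109). The late against the early LPS times did not pass the test (0.26, adjusted p = 0.138). After scaling to Gapdh the rise over 12 to 48 h was 0.44 (adjusted p = 0.0102) and that at 12 h was 0.31 and not called (adjusted p = 0.14).

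Gzma encodes granzyme A, a tryptase of the same granules. Its values were 199.6, 102, 296, 385 and 488 in RasGRP4-null cells and 204, 229, 441, 369 and 413 in WT cells. The RasGRP4-null 12 h array lay below both untreated arrays, and the other 7 LPS arrays lay above them. Gzma rose by 0.59 over 12 to 48 h (standard error 0.20, adjusted p = 0.0214) and by 0.75 from the early to the late LPS times (standard error 0.18, adjusted p = 0.0108), a call lost without the RasGRP4-null 24 h array (0.67) or the RasGRP4-null 48 h array (0.60). The change at 12 h was -0.36 (adjusted p = 0.243). It was -0.85 without the WT 12 h array and 0.13 without the RasGRP4-null 12 h array. The rise over 12 to 48 h turned to -0.42 after scaling to Gapdh (adjusted p = 0.0533) and lost its call without the WT 0 h array (0.44) or the WT 24 h array (0.55).

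Prf1 encodes perforin, the pore-forming protein. Its values were 129, 67.5, 207, 206 and 219.9 in RasGRP4-null cells and 91.7, 166, 178, 221 and 227 in WT cells. As for Gzma, the lowest of the 10 values was on the RasGRP4-null 12 h array, while the WT 12 h array was above both untreated arrays. Prf1 rose by 0.63 over 12 to 48 h (standard error 0.22, adjusted p = 0.0241), and its change at 12 h was -0.02 (adjusted p = 0.958). The 12 h change was -0.64 without the WT 12 h array and 0.60 without the RasGRP4-null 12 h array. The rise over 12 to 48 h turned to -0.34 after scaling to Gapdh (adjusted p = 0.119). It lost its call without the WT 0 h array (0.29) or the RasGRP4-null 24 h array (0.58).

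Tbx21 encodes T-bet, which activates Ifng and the granule genes. Its values were 46.6, 172, 213, 239.7 and 212 in RasGRP4-null cells and 38.4, 234, 209, 339 and 271 in WT cells, with the WT 0 h value just under the background level of 38.5. All 8 LPS values were above both untreated values. Tbx21 rose by 2.09 over 12 to 48 h (standard error 0.14, adjusted p = 2.69e-07) and by 1.90 at 12 h (standard error 0.18, adjusted p = 5.03e-06). After scaling to Gapdh the change over 12 to 48 h was 1.26 (adjusted p = 4.8e-06).

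Eomes, the other T-box factor, which mature conventional NK cells also need, had another course. Its values were 70.3, 42.6, 33.4, 30.0 and 42.9 in RasGRP4-null cells and 48.0, 42.0, 22.7, 31.9 and 32.0 in WT cells. All 8 LPS values were below both untreated values, but Eomes reached the level needed for a test (50 on 2 arrays) on 1 array, and its WT 24 h value was below background. No test was made for it, and the difference from Tbx21 was not tested.

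Klrd1 encodes CD94, the shared chain of the NKG2 receptors that read Qa-1 on other cells. Its values were 298, 70.5, 108, 149 and 184 in RasGRP4-null cells and 324, 81.1, 121, 153 and 191 in WT cells. The 12 h value was 0.237 times the untreated one in RasGRP4-null cells and 0.25 times in WT cells, and each later value was higher than the one before it. Klrd1 fell by 1.83 at 12 h (standard error 0.12, adjusted p = 4.95e-07) and rose by 0.75 from the early to the late LPS times (standard error 0.09, adjusted p = 0.000236). Over 12 to 48 h it fell by 1.20 (standard error 0.10, adjusted p = 1.23e-06). Of the 10 genes it had the least spread between the genotypes, with RasGRP4-null over WT ratios of 0.87 to 0.976 over the 5 times.

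Klrk1 encodes NKG2D, the receptor for stress ligands. Its values were 256, 192, 159, 167 and 224 in RasGRP4-null cells and 220.2, 188, 145, 169.5 and 173 in WT cells. It fell by 0.40 over 12 to 48 h (standard error 0.11, adjusted p = 0.00625), a call that was lost without the RasGRP4-null 0 h array (-0.36, adjusted p = 0.0726). The 12 h change was -0.30 (adjusted p = 0.0775). It was called lower after scaling to Gapdh (-1.28, adjusted p = 2.79e-05), after quantile normalization (-0.52, adjusted p = 0.00742) and with the times of the source names (-0.40, adjusted p = 0.0409). The change over 12 to 48 h was -1.43 after scaling to Gapdh.

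Ncr1 encodes NKp46, the receptor that in mice marks NK cells and some innate lymphoid cells. Its values were 213, 192, 239.8, 261 and 303 in RasGRP4-null cells and 188, 254, 197, 230.4 and 299 in WT cells. The highest value was 1.61 times the lowest, the least of the 10 genes, and the highest in each genotype was at 48 h. The change over 12 to 48 h was 0.27 (standard error 0.13, adjusted p = 0.0854), close to the median of all tested genes (0.26), and it turned to -0.75 after scaling to Gapdh (adjusted p = 0.000145), where that median was -0.70. Without the RasGRP4-null 12 h array it was called higher (0.33, adjusted p = 0.0137).

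Klrb1c encodes NK1.1, the antigen by which NK cells of B6 mice are usually identified. Its own probe set gave 38.7, 11.0, 6.00, 15.5 and 12.2 in RasGRP4-null cells and 29.3, 8.94, 12.0, 14.8 and 11.1 in WT cells, and only the RasGRP4-null 0 h value was above background. Another 2 probe sets list Klrb1c together with a neighbouring gene and gave different courses. The one shared with Klrb1b had 41.4, 84.1, 102, 173 and 230.1 in RasGRP4-null cells and 39.5, 58.8, 66.7, 130.2 and 183 in WT cells, all above background, and the one shared with Klrb1a was below background on all 10 arrays. The level of Klrb1c can therefore not be read from these arrays, and the defining surface marker of the cell type was not measured.

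**Figure D2:**
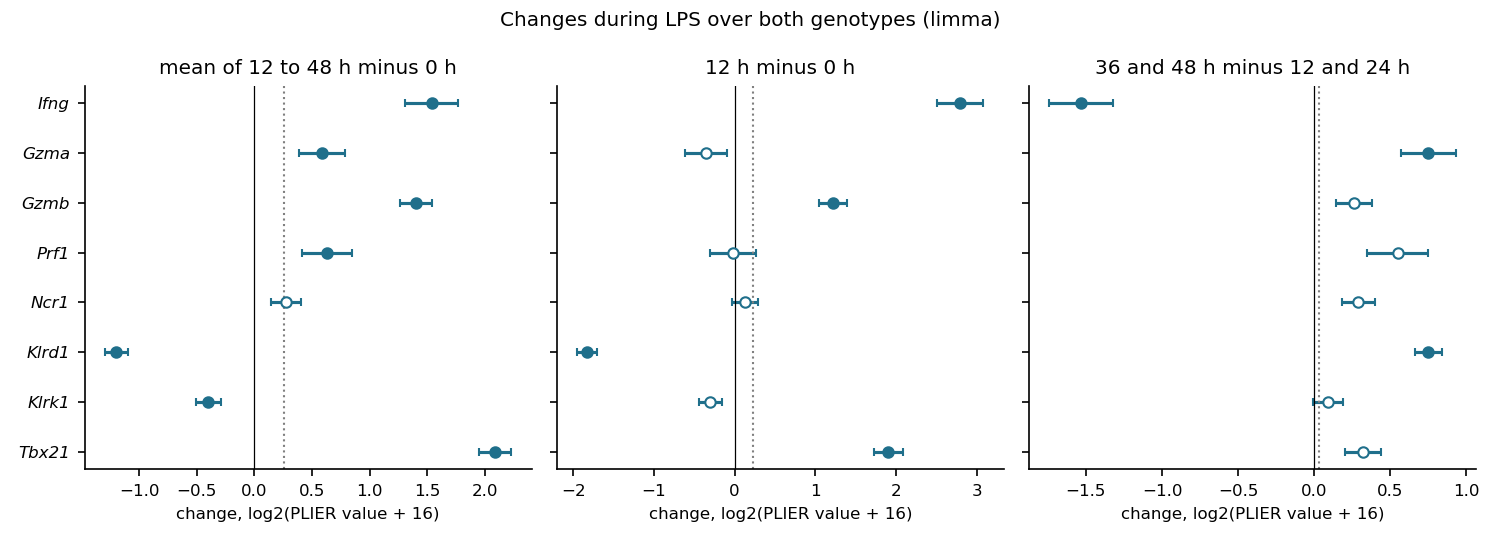
limma changes of the 8 tested genes over both genotypes on the scale log2(PLIER value + 16) (x axis) with their standard errors as bars, for the mean of 12 to 48 h minus 0 h, 12 h minus 0 h, and the mean of 36 and 48 h minus the mean of 12 and 24 h; filled points have an adjusted p under 0.05 and the dotted line is the median of all 11185 tested genes. Ifng rose by 2.79 at 12 h and fell by 1.53 later, while Klrd1 fell by 1.83 at 12 h and rose by 0.75 later.

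At 12 h alone 3 of the 8 genes rose (Ifng, Gzmb and Tbx21) and 1 fell (Klrd1), where 41.9% of all tested genes rose and 19.9% fell. On the Gapdh scale 2 of the 8 were higher and 5 lower at 12 h, where 8.4% of all tested genes were higher and 61.3% lower. From the early to the late LPS times 2 of 8 rose (Gzma and Klrd1) and 1 fell (Ifng), where 16.7% of all tested genes rose and 9.86% fell. The medians of the 8 genes were 0.06 at 12 h and 0.31 from early to late, against 0.23 and 0.03 for all tested genes.

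The genotypes were compared over all 5 times, over the 4 LPS times, and by whether the LPS response differed. None of the 8 genes passed any of these limma tests, which called 0.179% of all tested genes over 5 times (20 of 11185), 0.224% over the LPS times (25) and 0.179% for the response (20). The RasGRP4-null minus WT difference of Ifng was -0.37 over 5 times (standard error 0.19, adjusted p = 0.608), -0.55 over the LPS times (standard error 0.17, adjusted p = 0.229), and its LPS response was -0.95 relative to that in WT cells (standard error 0.38, adjusted p = 0.579). For the other 7 genes the differences over 5 times ran from -0.27 (Gzma, adjusted p = 0.687) to 0.28 (Gzmb, adjusted p = 0.442). Over the LPS times Tbx21 gave -0.30 (standard error 0.11, adjusted p = 0.364). At an unadjusted p under 0.05, 1051, 1074 and 839 of all tested genes passed the 3 tests. A paired t-test called 848 genes over the 5 times before adjustment and 0 after it. The methods of the study name this kind of test for parametric data in general, and for the arrays they give a fold rule. This rule asks for over 1% of Gapdh and over 3.6-fold against 0 h on the Gapdh scale. Ifng passed in WT cells at 12 and 24 h (7.36 and 4.03), where the untreated value was below background. It passed at no time in RasGRP4-null cells (2.84 and 1.09 at 12 and 24 h). Tbx21 passed at 36 h in WT cells alone (4.26). In RasGRP4-null cells alone, Gzma at 12 h (0.277) and Klrk1 at 24 h (0.26) passed as lower. The rule is no test of a genotype difference.

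Differences at a single time rest on 1 array per genotype and were not tested. At 12 h the RasGRP4-null array was lower than the WT array by a log2 difference of 1 or more for 3 of the 8 genes, Ifng (-1.06), Gzma (-1.06) and Prf1 (-1.12), where 0.349% of all tested genes (39 of 11185) were as much lower. This limit and this time were chosen after the values had been seen. As ratios of the PLIER values, RasGRP4-null cells had 0.464 (Ifng), 0.444 (Gzma) and 0.408 (Prf1) of the WT level at 12 h. After scaling to Gapdh the log2 differences were -0.69, -0.72 and -0.80 against a median of 0.34 over all tested genes, and after quantile normalization -1.03, -1.01 and -1.09. The other 5 tested genes stood closer to WT at that time, with Gzmb at -0.19, Ncr1 at -0.38, Tbx21 at -0.41, Klrd1 at -0.17 and Klrk1 at 0.02.

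By 24 h the 3 genes had parted. Ifng was still lower in RasGRP4-null cells (0.487 of WT) and Gzma was at 0.671 of WT, whereas Prf1 was at 1.16 times the WT level. At 36 and 48 h the RasGRP4-null over WT ratios of the 3 genes lay between 0.817 and 1.18. At 0 h RasGRP4-null cells had at least 1.26 times the WT level of Ifng, with the background level in place of the WT value. Their levels of Gzmb and Prf1 were 1.43 and 1.40 times those of WT cells. At 0 h 2 of the 10 genes were lower in RasGRP4-null cells, and 7, 4, 6 and 3 at the LPS times in their order (5 at 12 h after scaling to Gapdh). The median differences of all tested genes were -0.02 at 0 h and -0.00, 0.10, -0.00 and -0.03 at the LPS times. These counts include Klrb1c, which was above background on 1 array, and are no result about the genes. Tbx21 was lower in RasGRP4-null cells at 12, 36 and 48 h (0.735, 0.706 and 0.785 of WT), and at 1.02 times WT at 24 h.

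**Figure D3:**
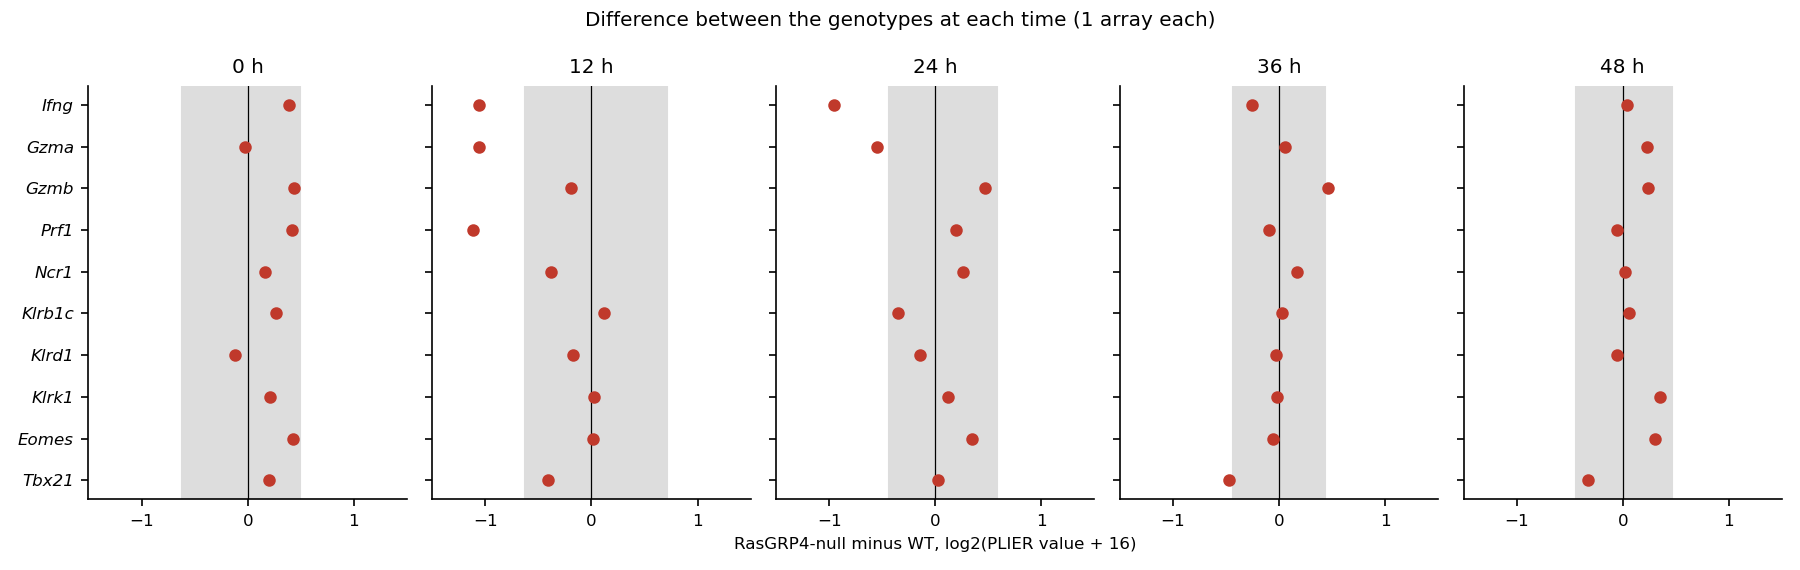
RasGRP4-null minus WT difference on the scale log2(PLIER value + 16) (x axis) of each gene (rows) at 0, 12, 24, 36 and 48 h, 1 array per genotype in each panel; the grey band holds the middle 95 percent of all 11185 tested genes. Ifng, Gzma and Prf1 lie left of the band at 12 h, Ifng (-0.95) and Gzma (-0.55) at 24 h and Tbx21 (-0.47) at 36 h, with Gzmb (0.46) to its right at 36 h.

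Markers of other cells also differed between the 2 arrays of 12 h. Of the 10 B cell markers 9 were lower in RasGRP4-null cells (summed values 4247 in RasGRP4-null and 6436 in WT cells). All 10 ILC markers, Kit among them, were higher (1738 and 1020), with 8 above background in RasGRP4-null and 7 in WT cells. So were 12 of 12 mast cell and basophil markers (694 and 343), but only 8 of these were above background in RasGRP4-null and 3 in WT cells. Il1rl1 is in both lists. Kit itself was 334 in RasGRP4-null and 179 in WT cells at this time, and Gapdh 2815 and 3893. The T cell markers were 1115 and 1151, with 5 of 17 lower in RasGRP4-null cells. Of the 10 B cell markers 7 were lower in RasGRP4-null cells after scaling to Gapdh (5564 and 6436), and the summed T cell markers were higher there (1460 and 1151). Over all tested genes 7.44% differed at least 1.5-fold in either direction at 12 h, against 4.37% at 0 h and 1.92% at 48 h. The part of these differences in the lower Ifng, Gzma and Prf1 was not tested. Without the RasGRP4-null 12 h array the genotype difference rested on the other times and was -0.07 for Gzma, 0.12 for Prf1 and -0.19 for Ifng.

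The other genes around the NK program came from lists of receptors, granule proteins, transcription factors, cytokines and IFN-γ targets. All list values are on the PLIER scale, where 48.2% of all tested genes rose and 21.5% fell. Against these shares the counts of the lists are a description, and no list was tested. After scaling to Gapdh the list medians were -1.42 for NK receptors and adaptors, -0.77 for granule genes, -1.21 for transcription factors, -0.31 for cytokine receptors, -0.20 for cytokines, -0.36 for the IFN-γ receptor pathway and 0.91 for IFN-γ induced genes, against -0.70 for all tested genes. In the list of NK receptors and adaptors, 5 of 17 tested genes rose over 12 to 48 h and 9 fell (median -0.41). The falls with the smallest p were those of Tyrobp, the signaling adaptor DAP12 (-2.79, adjusted p = 4.46e-09), Fcgr3, the IgG receptor CD16 (-2.61, adjusted p = 1.48e-08), and Sh2d1b1, the adaptor EAT-2 (-2.17, adjusted p = 4.03e-08). Macrophages and neutrophils also make Tyrobp and Fcgr3. Of their tested markers 10 of 10 and 8 of 8 fell, and their part in these falls was not tested. The receptor gene Klri1 fell by 2.59 (adjusted p = 1.19e-07). Of the Ly49 receptors, several of which share probe sets, 2 could be tested. Klra2 fell by 2.51 (adjusted p = 1.2e-08) and was above background on the 2 arrays of 0 h alone. Klra17 rose by 0.70 (adjusted p = 0.0321), or changed by -0.10 after scaling to Gapdh. The cells that carried Sh2d1b1, Klri1, Klra2 and Klra17 were not identified, and these changes cannot be assigned to NK cells.

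Of the other granule and release genes 8 of 16 rose and 5 fell (median 0.26, the same as that of all tested genes). The 3 with the smallest p were serpins, which are protease inhibitors: Serpinb9, which blocks granzyme B (2.84, adjusted p = 7.85e-09), its relative Serpinb9b (3.44, adjusted p = 8.5e-08), and Serpinb6b (1.79, adjusted p = 2.15e-07). Stx11, a syntaxin needed for granule release, rose by 1.64 (adjusted p = 1.11e-06). None of the further granzyme genes of the list, Gzmc to Gzmg, Gzmk, Gzmm and Gzmn, reached the level for a test. These granule genes are not limited to NK cells, and the cells that carried them were not identified.

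Of the NK transcription factors 4 of 11 rose and 4 fell (median -0.15). Stat4, which carries the IL-12 signal to Ifng, rose by 2.77 (adjusted p = 1.19e-08), and Prdm1, which encodes Blimp-1, a repressor at work in the last steps of lymphocyte differentiation, by 1.68 (adjusted p = 3.08e-07). Id2, which NK cells and other innate lymphocytes need, fell by 1.20 (adjusted p = 1.62e-05), and Hlx fell by 0.71 (adjusted p = 0.000268). In the lists of NK receptors, granule proteins, transcription factors, cytokines and IFN-γ targets, Prdm1 was the only gene with a genotype call. It was higher in RasGRP4-null cells by 0.65 over 5 times (standard error 0.09, adjusted p = 0.0229). Its values were 122, 349.5, 460.3, 561 and 581 in RasGRP4-null cells and 89.7, 234, 264, 321 and 334 in WT cells, higher in RasGRP4-null cells at 5 of 5 times. The cells that carried these factors were not identified. Their changes and the Prdm1 difference cannot be assigned to NK cells.

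Of the receptors for cytokines that act on NK cells 9 of 12 rose and 1 fell (median 0.72), and 5 of the 12 changes turned after scaling to Gapdh. Il2ra, the high-affinity chain of the IL-2 receptor, rose by 4.31 (adjusted p = 2.38e-10), Il12rb1 and Il12rb2, the chains of the IL-12 receptor, by 3.07 (adjusted p = 2.32e-08) and 1.48 (adjusted p = 2.54e-06), and Il15ra, which presents IL-15 to NK cells, by 2.68 (adjusted p = 3.8e-08). Ifnar2 fell by 0.52 (adjusted p = 0.00125). The cells that carried these receptor transcripts were not identified, and the changes cannot be assigned to NK cells. On the side of the cytokines 5 of 9 rose and 2 fell (median 0.68). Il18, an inducer of IFN-γ made by macrophages, fell by 3.42 (adjusted p = 5.1e-09), with values of 33.3 to 47.6 after LPS in RasGRP4-null cells and 23.9 to 41.7 in WT cells, against 512 and 527 at 0 h. Il15 rose by 1.49 (adjusted p = 4.23e-06), Tnfsf4 (OX40 ligand) by 2.68 (adjusted p = 1.66e-07) and Ebi3, a subunit of IL-27, by 1.65 (adjusted p = 0.000192). Il12a, which encodes the p35 chain of IL-12, was 66.2, 151, 117, 134 and 113 in RasGRP4-null cells and 79.6, 89.5, 116, 182 and 124 in WT cells. The gene for its partner chain p40, Il12b, was 82.7, 68.9, 29.4, 30.3 and 43.2 in RasGRP4-null cells and 76.3, 39.4, 45.7, 33.0 and 38.1 in WT cells, and fell over 12 to 48 h (-0.77, adjusted p = 0.00131).

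Among 9 genes of the IFN-γ receptor pathway 5 rose and 1 fell (median 0.67), and 4 of the 9 changes turned after scaling to Gapdh. The fall was that of Ifngr1, the ligand-binding chain (-1.32, adjusted p = 7.93e-07). Socs1, the feedback inhibitor of JAK signaling, rose by 2.59 (adjusted p = 1.63e-08), and Socs3, its relative, by 1.13 (adjusted p = 1.24e-05). Of 15 tested genes that IFN-γ is known to induce, 13 rose and 2 fell (median 1.55), and the smallest p were those of the GTPase genes Gbp2 (3.86, adjusted p = 3.36e-10), Igtp (3.78, adjusted p = 2.04e-09), Iigp1 (3.52, adjusted p = 7.14e-09) and Irgm1 (2.91, adjusted p = 8.14e-09), which type I interferon also induces. The 2 that fell were Cxcl9 (-1.83, adjusted p = 4.61e-07) and Ciita (-1.03, adjusted p = 2.05e-05), and they were added to the named genes after their values had been seen. None of the 15 passed a genotype or response test. Of the 16 measured, 6 were lower in RasGRP4-null cells at 12 h and 7 at 24 h, the times at which Ifng was lower by about 1 on the log2 scale (-1.06 and -0.95), and 12 and 13 were lower at 36 and 48 h (medians -0.26 and -0.23), when Ifng differed by -0.25 and 0.04. On the Gapdh scale 0 of the 16 were lower in RasGRP4-null cells at 12 h, where the median difference of all tested genes was 0.34. In the lists of NK transcription factors and of the IFN-γ receptor pathway 0 of 13 and 0 of 9 were lower on that scale too.

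**Figure D4:**
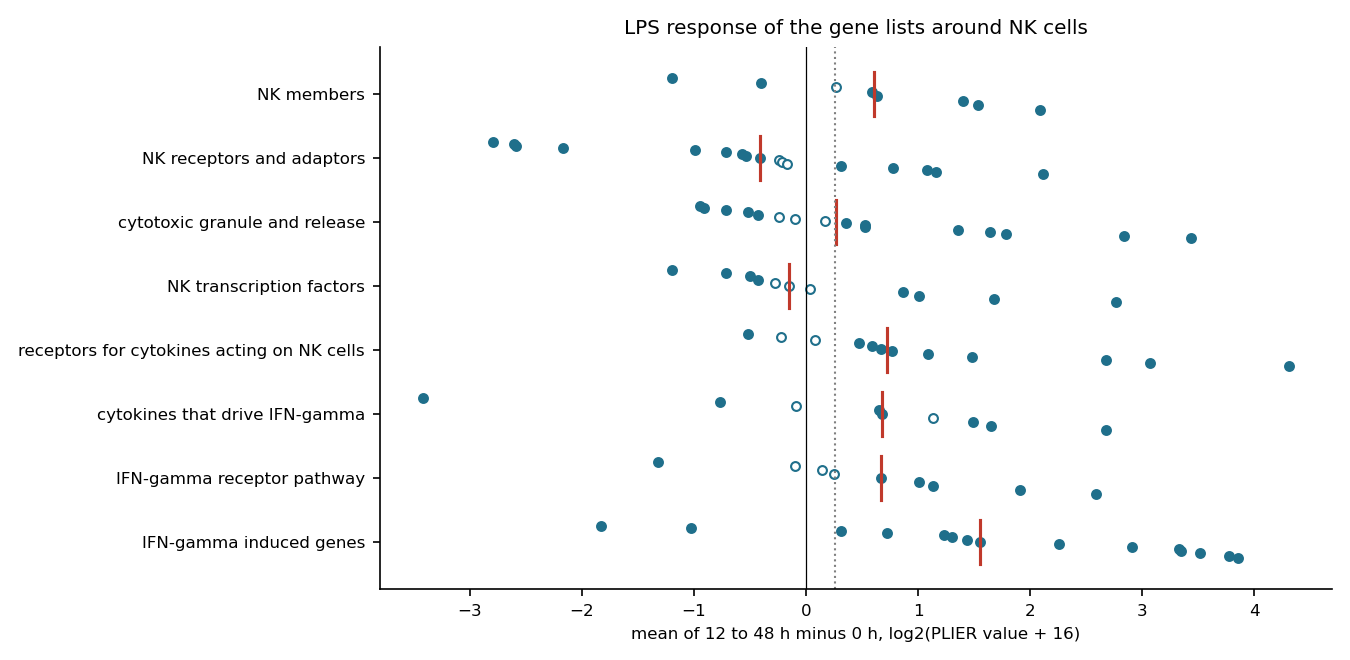
limma change over 12 to 48 h minus 0 h on the scale log2(PLIER value + 16) (x axis) of each tested gene in 8 lists (rows), over both genotypes; filled points have an adjusted p under 0.05, the red bar is the median of the list and the dotted line the median of all tested genes (0.26). NK receptors and adaptors have a median of -0.41 and IFN-γ induced genes of 1.55.

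The genes whose 10 values were most like those of a member are given as a description, with Pearson's r of log2(PLIER value + 16) over the 10 arrays among 11184 other genes. All points share the LPS time course, and r carries no test. For Ifng they were Gm6211 (0.983), Rbbp7 (0.975), Cct6a (0.975), Ndufaf4 (0.972) and Nip7 (0.970), and for Gzmb Rnf5 (0.982), Copg1 (0.981), Slc35b1 (0.981), Coasy (0.980) and Hyou1 (0.979). For Ncr1 they were Cst7 (0.926), which encodes cystatin F, an inhibitor of the cathepsins that activate granzymes, Uevld (0.922), Creb3 (0.920), 4931406P16Rik (0.917) and Il18r1 (0.915), a chain of the IL-18 receptor. Cct6a, a subunit of the chaperonin that folds actin and tubulin, had 391, 1076, 870.0, 658 and 599 in RasGRP4-null cells and 382, 1523, 1156, 699 and 622 in WT cells, so that like Ifng it was highest at 12 h and lower in RasGRP4-null than in WT cells at 12 and 24 h. Cst7 had 72.6, 76.0, 101, 119 and 142 in RasGRP4-null cells and 58.9, 96.0, 75.0, 102 and 115 in WT cells.

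Among the 10 genes themselves, Gzma and Prf1 had an r of 0.91, Gzmb and Tbx21 of 0.89, and Klrk1 and Eomes of 0.95, over the same 10 arrays. Eomes lay at 0.74 to 2.255 times the background level and was too dim for a test. Klrd1 and Ifng ran opposite to each other (-0.9), and in each genotype the lowest Klrd1 and the highest Ifng value were those of 12 h. Ncr1 had an r of 0.00 with Klrd1 and -0.09 with Ifng.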

How the data were processed

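CD117+ splenocytes of RasGRP4-null and WT mice were profiled on 10 Affymetrix MoGene 2.0 ST arrays. The authors made the deposited intensity values with PLIER in Expression Console (versions and background settings beyond the column names are not given in the sources used here), and 1 factor per array gave the Gapdh-scaled intensities. The value table of the series equals PLIER times this factor to within 0.5. Another 10 columns that repeat the samples were not used. The number of arrays limits the precision.

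Values were analysed as log2(PLIER value + 16), with 1 probe set per gene, for the 11185 genes that reached a PLIER value of 50 on 2 or more arrays. limma 3.58.1 in R 4.3.3 fitted genotype and time as additive terms, and the response difference as a product term, with Benjamini-Hochberg adjustment at 0.05. Each genotype and time had 1 array, so the additive fit takes its error from the genotype differences across times. The time points may share 1 cell preparation, and p-values describe these preparations. The steps were tested on simulated data. Alternatives were the Gapdh scaling, the value table, quantile normalization, pseudocounts of 1 and 64, other filters, the times of the source names, the paired t-test of the methods, and leaving out each array.

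The text names the 10 genes, up to 4 tested genes per list with the smallest p for LPS, genes of these lists with a genotype call, check genes, and the 5 genes most like Ifng, Gzmb and Ncr1. A gene of the IFN-γ receptor pathway that this rule names is not reported here. Il12a, Il12b, Ifnar2, Cxcl9, Ciita, Cd3e, Themis and the further granzymes were added after their values were seen. The genes and lists were chosen with earlier results of these data known.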

Additional observations from a re-analysis of the deposited data

Results flagged for a closer look

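Rasgrp4 differed between the genotypes in how its LPS arrays stood to the 0 h array on the PLIER scale. The mean of the RasGRP4-null LPS arrays minus their 0 h array was 7.66 PLIER units, with 4 of 4 arrays above it, and that of the WT LPS arrays was -63.2, with 4 of 4 arrays below it. All 5 RasGRP4-null values (16.7 to 25.5) were below background and show no direction. After scaling to Gapdh the RasGRP4-null LPS arrays (24.0 to 31.0) lay below their 0 h array (40.3), as the WT LPS arrays (23.7 to 26.2) lay below theirs (193.6). The difference was not tested.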

How the results depend on the processing

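Across 1 array per condition no alternative test gave a genotype or response call for any of the 8 genes, except the paired t-test of the methods before adjustment, which called 1 (Klrd1, -0.10). Scaling to Gapdh and the value table turned the LPS responses of Gzma (-0.42), Prf1 (-0.34) and Ncr1 (-0.75) and the 12 h change of Ncr1 (-0.84), gave 7 calls at 12 h (2 higher and 5 lower), and turned the Klrd1 response difference (-0.05). Quantile normalization gave -0.10 for Ncr1 at 12 h and -0.02 for the Klrd1 response difference, left Gzma (0.38) and Prf1 (0.47) without their LPS calls, and gave 8 genotype calls over all genes. With the times of the source names Prf1 was 0.26 at 12 h and 0.01 for genotype, Klrd1 was 0.12 for genotype and 0.19 during LPS, Gzma and Prf1 (0.72 each) lost their LPS calls, and the counts were 1182 late against early, 4 for genotype, 2 during LPS and 0 for the response. Prf1 at 12 h was 0.00 with pseudocount 64. Genotype counts were 11 with pseudocount 1, 12 with pseudocount 64, 9 with no filter, 10 with all probe sets, and by the paired t-test 0 after and 848 before adjustment. Counts during LPS were 14 with pseudocount 1 and 15 with pseudocount 64. Response counts were 32 with pseudocount 1, 7 with pseudocount 64, 53 with no filter and 4 with a filter at 100.

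Leaving out 1 array gave counts of 6405 to 7926 for LPS, 5879 to 6957 at 12 h, 1684 to 3038 late against early, 1 to 25 for genotype, 1 to 38 during LPS and 1 to 20 for the response. Of the 8 genes it called 5 to 8 for LPS, 4 to 6 at 12 h and 2 to 6 late against early. The 12 h change ran from -0.85 to 0.13 for Gzma, -0.64 to 0.60 for Prf1 and -0.13 to 0.40 for Ncr1. The genotype difference ran from -0.27 to 0.12 for Prf1 and -0.01 to 0.15 for Ncr1, that during LPS from -0.42 to 0.02 and from -0.06 to 0.15, and the Klrd1 response difference from -0.00 to 0.04. The LPS calls of Ifng, Gzmb, Klrd1 and Tbx21 held under all alternative limma fits run. The cause of these changes was not tested. Values near background, those of Eomes and Klrb1c above all, carry the least information.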
